A study of Mus musculus with 78 samples.

Results

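The genes described here are 38 genes of the cell cycle, the ordered programme by which a cell copies its DNA and divides. They were chosen by gene symbol, with earlier results of these data known. They are 38 of the 24499 genes in the count files of a mouse kidney RNA sequencing study. The study combined 3 diets, a solvent and 2 dosing regimens in male C57BL/6J mice, an inbred strain. Every animal ate its diet for 8 weeks, and no group ate an ordinary chow. LFD denotes the low-fat feed, of which 4% was fat, HFD the high-fat feed, of which 31% was fat, and MCD a feed deficient in methionine, choline and folate. The solvent was tetrachloroethylene (PERC), used in dry cleaning and degreasing and known to reach the kidney as toxic metabolites. It was given at 300 mg/kg per day in saline with the emulsifier Alkamuls-EL620, which the vehicle animals received without PERC.

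In the single regimen, kidneys were taken 24 hours after 1 dose of PERC, and the time for its vehicle animals is not given in the sources used here. In the repeated regimen, they were taken 4 hours after the last of 5 daily doses of PERC or vehicle. In the single regimen LFD had 4 PERC and 5 vehicle libraries, HFD had 5 and 4, and MCD had 4 and 3. In the repeated regimen LFD had 9 and 7, HFD had 8 and 8, and MCD had 8 and 7. The 72 libraries held between 8556278 and 42022166 counts in genes, and 5 further libraries of the single regimen, with 2267 to 22029 counts, were left out. The 2 regimens shared no sequencing lane, so each PERC effect was taken against the vehicle libraries of its own regimen.

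1 library did not match its label in 2 genes that PERC moved in the other libraries of its group. In the repeated regimen, the library labelled LFD PERC replicate 4 held 1.82 CPM (counts scaled to library size) of Havcr1, a marker of injured tubule cells. The LFD vehicle libraries held a median of 2.54 CPM of Havcr1, and their highest value was 2.62 CPM. The same library held 121 CPM of Cyp4a14, a fatty acid hydroxylase, where the other 8 LFD PERC libraries held 892 CPM or more. In MCD PERC replicate 6 Havcr1 was also low, at 1.71 CPM, but Cyp4a14 was at 7930 CPM. In the single regimen, HFD vehicle replicate 4 held 347 CPM of Cyp4a14, inside the 193 to 760 CPM of the HFD PERC libraries. The other HFD vehicle libraries of that regimen held 17.5, 20.8 and 33.2 CPM. Havcr1 in HFD vehicle replicate 4, at 1.68 CPM, lay within the 1.12 to 2.53 CPM of those libraries. That library was kept under its label. Counts of called genes for repeated PERC, averaged over diets and on LFD, are given below with and without LFD PERC replicate 4.

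A dividing cell passes through G1, in which cyclin D and its kinases release E2F factors from the retinoblastoma protein, and then S phase, in which the MCM helicase opens the DNA at origins. In G2 and mitosis, cyclin B and CDK1 drive entry into division, kinetochore and spindle proteins separate the chromosomes, and the anaphase-promoting complex ends mitosis by marking cyclin B for destruction. In the adult kidney few cells divide, and tubule cells re-enter the cycle after injury. Of the 38 genes, 12 act in G1 and S phase (Ccnd1, Ccne1, Ccne2, Mcm2 to Mcm7, Pcna, Tyms and Rrm2) and 26 act in G2 and mitosis. All 38 passed the filter on low counts in the repeated regimen, and 37 did in the single regimen, where Ccne1 did not.

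Promoters are shown because many genes of G2 and mitosis are known to carry 2 promoter elements. These are the CCAAT box, bound by the factor NF-Y, and the cell cycle genes homology region (CHR), bound by the DREAM and MYB-MuvB complexes. The sequences are from RefSeq, build GRCm38.p6, and run from 200 bases before to 20 bases after the gene's start. Each lies on the minus strand of its chromosome. Top2a is shown at chr11:99024170-99024389, Mki67 at chr7:135716360-135716579, Cdk1 at chr10:69352893-69353112 and Tyms at chr5:30073606-30073825. Capitals mark TTTGAA (the CHR), CCAAT and TTTNNCGC (an E2F motif), on either strand.

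The 4 promoter stretches, 5′ to 3′, are these.
Top2a: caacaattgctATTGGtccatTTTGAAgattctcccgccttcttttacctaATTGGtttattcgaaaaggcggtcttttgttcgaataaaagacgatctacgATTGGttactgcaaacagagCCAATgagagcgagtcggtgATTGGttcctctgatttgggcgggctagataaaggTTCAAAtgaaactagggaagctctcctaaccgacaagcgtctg
Mki67: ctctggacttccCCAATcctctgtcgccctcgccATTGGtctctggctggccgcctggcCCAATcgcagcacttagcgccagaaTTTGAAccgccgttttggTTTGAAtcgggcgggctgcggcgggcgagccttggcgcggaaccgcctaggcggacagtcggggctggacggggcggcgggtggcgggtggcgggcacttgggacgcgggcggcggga
Cdk1: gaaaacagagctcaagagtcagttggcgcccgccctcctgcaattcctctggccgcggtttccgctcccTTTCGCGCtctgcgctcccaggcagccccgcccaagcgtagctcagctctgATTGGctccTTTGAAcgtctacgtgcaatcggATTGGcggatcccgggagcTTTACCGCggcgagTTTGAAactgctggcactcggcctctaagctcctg
Tyms: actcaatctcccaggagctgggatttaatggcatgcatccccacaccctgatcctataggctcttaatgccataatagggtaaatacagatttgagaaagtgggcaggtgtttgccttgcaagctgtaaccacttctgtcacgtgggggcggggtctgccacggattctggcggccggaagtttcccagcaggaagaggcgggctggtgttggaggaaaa

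Of the 38 genes, 30 had a promoter window of 300 bases in the RefSeq table. TTTGAA was found on either strand in 16 of the 21 windows of G2 and mitosis genes (76.2%) and in 1 of 9 windows of G1 and S phase genes (11.1%). It was found in 15.8% of the 17483 windows of all genes in the count files. CCAAT was in 90.5% of the G2 and mitosis windows, 77.8% of the G1 and S phase windows and 38.9% of all windows. TTTNNCGC was in 1 of 21 and in 5 of 9 windows, against 6.3% of all. The printed stretch of Tyms held none of the 3 motifs. Such matches are descriptions of letters in a window and do not show that a factor binds there.

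After 5 daily doses of PERC, genes of G2 and mitosis were lower, while nearly all genes of DNA replication did not pass the test. Averaged over the 3 diets, 19 of the 38 genes fell and none rose (edgeR quasi-likelihood F test, adjusted p below 0.05 with Benjamini-Hochberg adjustment over all 14614 genes tested). Among all genes tested, 11.7% were called lower and 12.8% higher. Of the 26 G2 and mitosis genes 17 fell, and of the 12 G1 and S phase genes only Ccnd1 and Mcm2 did. The median log2 fold change was −0.50 over the 26 genes, 0.03 over the 12 genes and 0.00 over all genes tested. Without the library labelled LFD PERC replicate 4 the count was 21. In whole kidney, fewer dividing cells and less of these RNAs per cell cannot be told apart.

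Mki67, which encodes the Ki-67 protein of dividing cells, held a lowest, median and highest value of 3.35, 4.75 and 10.2 CPM in the 7 LFD vehicle libraries of the repeated regimen, and of 1.21, 2.59 and 5.24 CPM in the 9 LFD PERC libraries. On HFD the values were 4.00, 4.82 and 9.95 CPM in vehicle libraries and 1.58, 2.51 and 5.43 CPM in PERC libraries. On MCD they were 4.22, 5.25 and 6.39 CPM in vehicle libraries and 1.47, 3.33 and 6.16 CPM in PERC libraries. The medians were lower with PERC on each diet, and the ranges of the 2 treatments overlapped on each. Averaged over diets, Mki67 fell by 0.84 on the log2 scale (SE 0.16, edgeR adjusted p = 6.3e-05), a fold of 1.79.

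**Figure D1:**
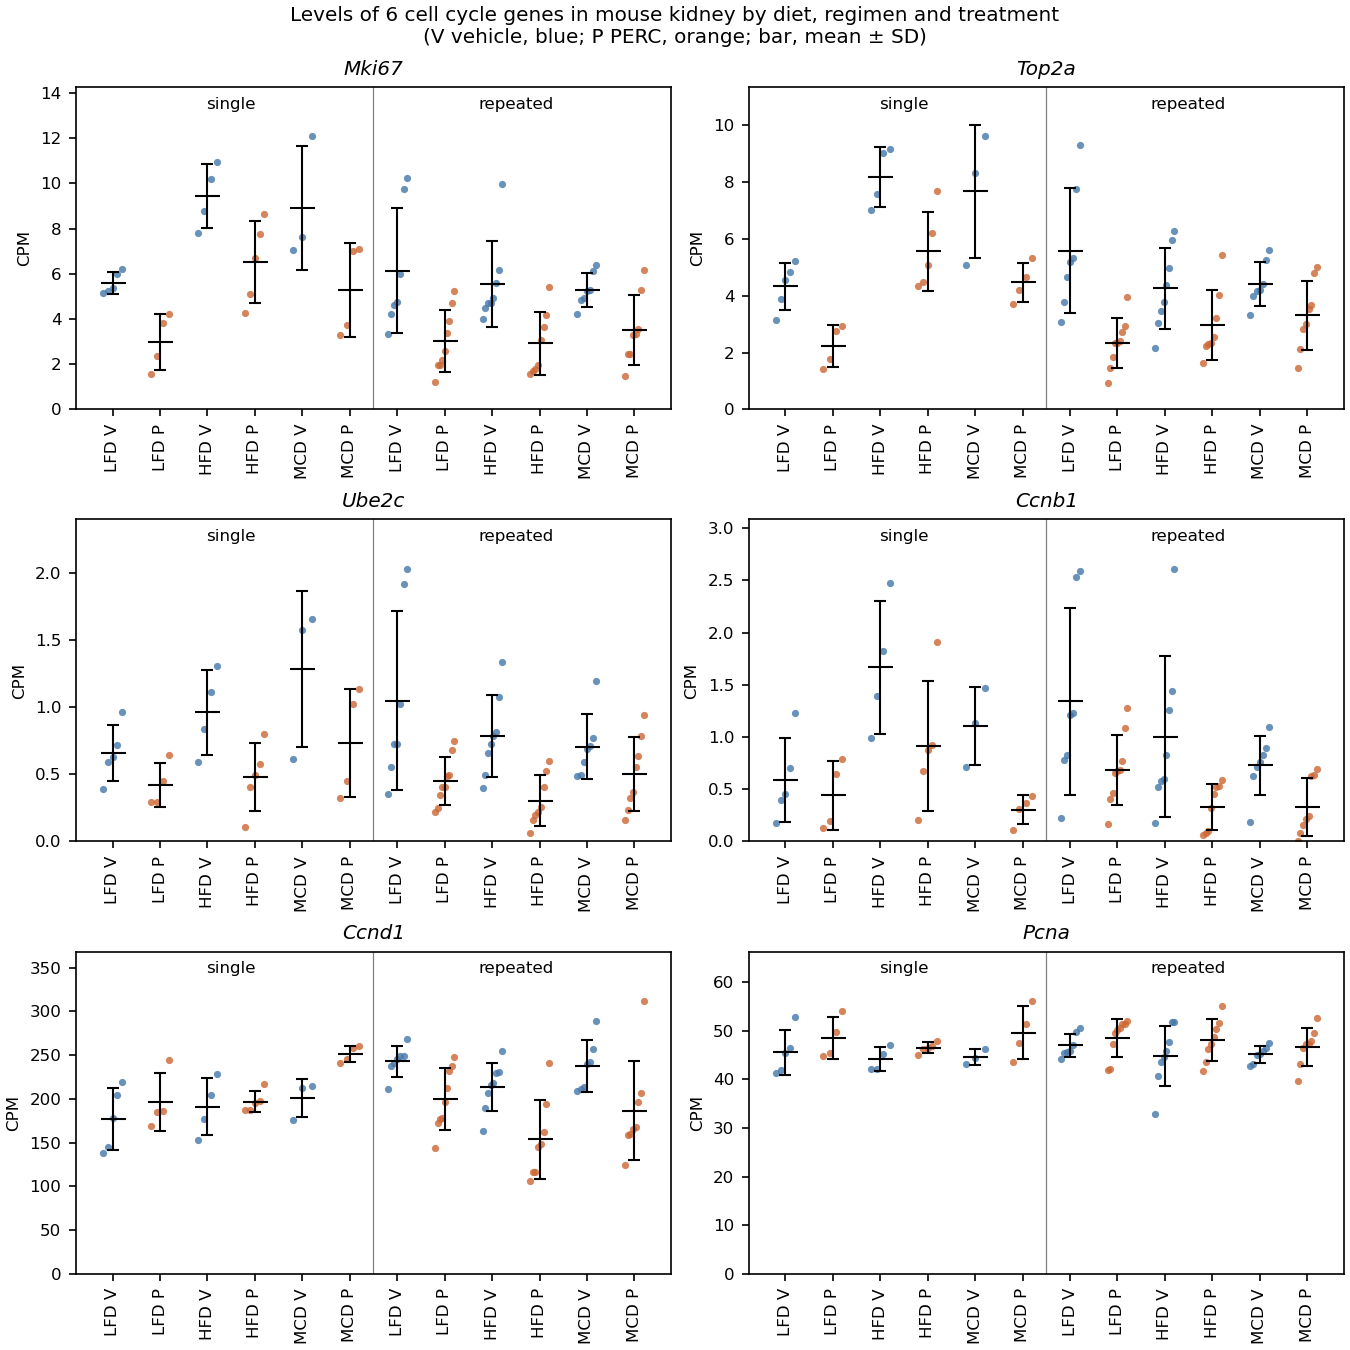
CPM of Mki67, Top2a, Ube2c, Ccnb1, Ccnd1 and Pcna in each library (y axis, linear) for the 12 groups (x axis), with vehicle in blue, PERC in orange and bars for the mean ± SD. The group means of the first 4 genes lie lower with PERC on each diet in both regimens, those of Ccnd1 lie lower with PERC in the repeated regimen, and Pcna stays within 32.8 to 56.2 CPM throughout.

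Top2a, the topoisomerase that untangles replicated chromosomes, held 3.07, 5.19 and 9.31 CPM (lowest, median and highest) in LFD vehicle libraries and 0.943, 2.35 and 3.97 CPM in LFD PERC libraries. On HFD it held 2.171, 4.08 and 6.28 CPM with vehicle and 1.64, 2.44 and 5.43 CPM with PERC. On MCD it held 3.34, 4.19 and 5.62 CPM with vehicle and 1.47, 3.28 and 5.03 CPM with PERC. The highest PERC library lay under the highest vehicle library on each diet, and the ranges overlapped. Its mean change over diets was −0.73 (log2, SE 0.14, edgeR adjusted p = 0.00012).

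The cyclins of mitosis and their kinase fell in 3 of 4 genes. Ccnb1, cyclin B1, held medians of 1.21, 0.714 and 0.756 CPM in vehicle libraries on LFD, HFD and MCD, and of 0.67, 0.385 and 0.23 CPM in PERC libraries. Its counts were few, between 0 and 58 per library, and its log2 change was −1.20 (SE 0.27, edgeR adjusted p = 0.00071). Ccnb1 and Ccnb2, cyclin B2, have named pseudogenes, and their counts are uncertain for that reason. Ccnb2 changed by −0.61 (log2) and Cdk1, the kinase that cyclin B activates, by −0.51. Ccna2, the cyclin of S phase and G2, was at −0.32 and did not pass (edgeR adjusted p = 0.054).

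Of the 3 genes of mitotic protein degradation, all fell. Ube2c, the ubiquitin-conjugating enzyme of the anaphase-promoting complex, held medians of 0.729, 0.756 and 0.691 CPM in vehicle libraries on LFD, HFD and MCD and of 0.41, 0.239 and 0.464 CPM in PERC libraries. Its log2 change was −0.996 (SE 0.20, edgeR adjusted p = 0.00016), a fold of 1.99, with 1 to 44 counts per library. Cdc20, the activator of the same complex, changed by −0.58, and Cdca3, which promotes degradation of the kinase WEE1, also by −0.58.

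Of the 6 spindle motors and spindle binding proteins, 4 fell. Tpx2, which activates Aurora A on spindle microtubules, was at −0.77 (SE 0.18, edgeR adjusted p = 0.00095) and Kif11, the motor that separates spindle poles, at −0.61. Prc1, which bundles the microtubules of the central spindle, was at −0.39, and Kif20a, a motor of cytokinesis, at −0.31. Nusap1, at −0.10, did not pass. Kif23, a motor of the central spindle, had a value of 0.16 and was the only gene of the 26 above 0.

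Of the 5 kinetochore and checkpoint genes, 3 fell: Cenpf, a large kinetochore protein, at −0.81, Bub1, a checkpoint kinase, at −0.71, and Cenpe, the kinetochore motor, at −0.41. Bub1b and Cenpa, the histone of the centromere, were at −0.15 and −0.08 and did not pass. Of the 6 mitotic kinases and members of the chromosomal passenger complex, Pbk, a mitotic kinase, fell at −0.75 and Birc5, survivin, at −0.49. Aurka, Aurkb, Plk1 and Cdca8 had values between −0.42 and −0.12 and did not pass.

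The replication genes gave smaller values. Pcna, the sliding clamp of DNA polymerase, held medians of 45.7, 45.2 and 45.2 CPM in vehicle libraries on LFD, HFD and MCD and of 50.1, 47.97 and 47.2 CPM in PERC libraries. Its log2 change was 0.07 (95% interval −0.01 to 0.14, edgeR adjusted p = 0.23). The 6 subunits of the MCM helicase lay between −0.18 and 0.04, and Mcm2 alone of them passed, at −0.18 (SE 0.06, edgeR adjusted p = 0.021). Tyms, thymidylate synthase, was at 0.03, and Rrm2, a subunit of ribonucleotide reductase, at 0.01.

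The cyclins of G1 did not move together. Ccnd1, cyclin D1, held medians of 245, 217 and 240 CPM in vehicle libraries on LFD, HFD and MCD and of 196, 146.8 and 167 CPM in PERC libraries. The ranges overlapped on each diet, with 312 CPM in MCD PERC replicate 7 the highest value of all. Ccnd1 changed by −0.37 (log2, SE 0.08, edgeR adjusted p = 0.00050). Ccne1 and Ccne2, the E cyclins that drive entry into S phase, had values of 0.25 and 0.26 and did not pass (edgeR adjusted p = 0.22 and 0.074).

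**Figure D2:**
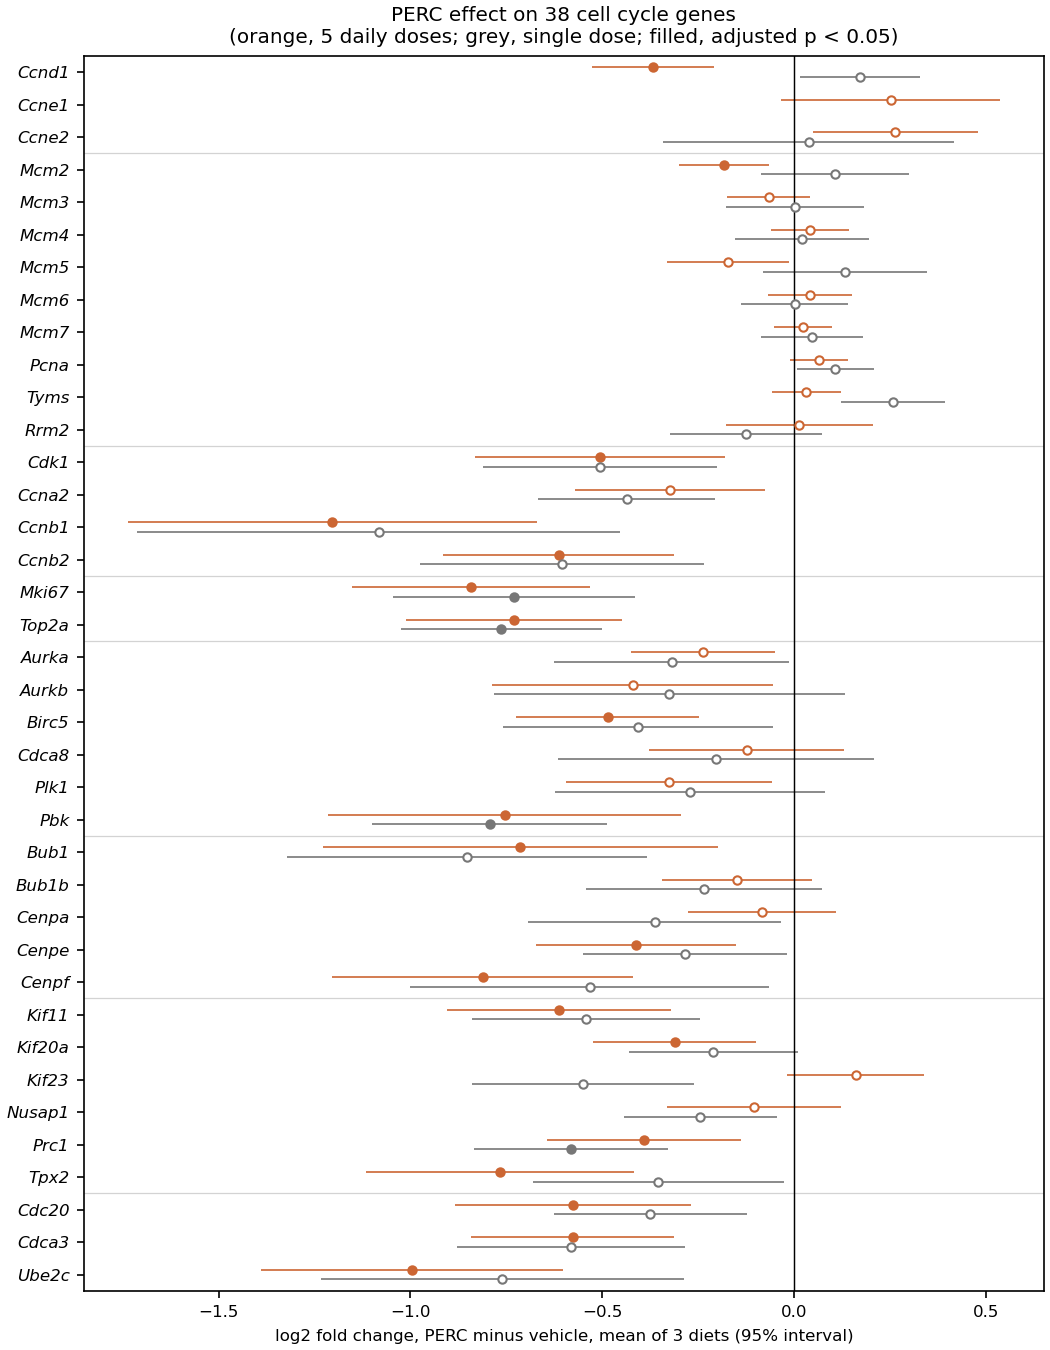
Log2 fold change of the 38 genes for PERC minus vehicle, averaged over the 3 diets (x axis, points with 95% intervals), in the repeated (orange) and single (grey) regimens, with filled points past the test. In the repeated regimen all 17 filled G2 and mitosis genes lie between −1.20 and −0.31, and the filled G1 and S phase genes are Ccnd1 and Mcm2.

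The same genes and libraries were also described library by library. Each library's median log2 difference over the 26 G2 and mitosis genes from the vehicle mean of its diet was below 0 in 22 of 25 PERC libraries and in 11 of 22 vehicle libraries. Vehicle libraries were set against a mean that they themselves make up, so values on both sides of 0 were built in for them. The median difference ranged from −1.18 to 0.178 with PERC and from −0.479 to 0.811 with vehicle. All 9 LFD PERC libraries were below 0, and so were 4 of the 7 LFD vehicle libraries. LFD vehicle replicates 1 and 3 were the highest of all, at 0.586 and 0.811, and raise the LFD vehicle mean. Group medians of the vehicle libraries were −0.202 on LFD, 0.00885 on HFD and 0.0375 on MCD. The library labelled LFD PERC replicate 4 was at −0.531. Over the 12 G1 and S phase genes the medians stayed within −0.209 to 0.209.

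**Figure D3:**
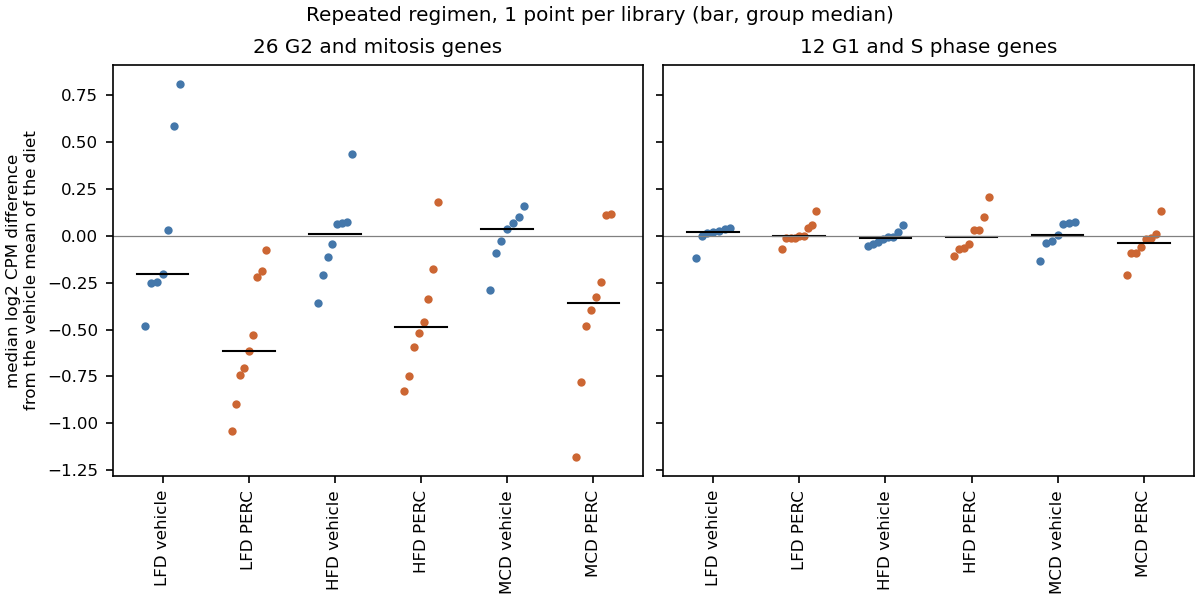
Median log2 CPM difference from the vehicle mean of the diet (y axis) over the G2 and mitosis genes (left) and the G1 and S phase genes (right), with 1 point per library of the repeated regimen and a bar at each group's median. The G2 and mitosis medians of the PERC groups lie at −0.617 on LFD, −0.488 on HFD and −0.361 on MCD. Those of the vehicle groups lie at −0.202, 0.00885 and 0.0375.

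By diet, the repeated doses gave calls on LFD and HFD and none on MCD. On LFD 9 genes fell and none rose, where 2.43% of all genes tested were called lower and 4.48% higher (6.91% in all). They were Top2a, Ccnb2, Mki67, Ube2c, Cdca3, Tpx2, Aurkb, Cenpf and Bub1, with log2 changes between −1.34 and −0.77. Top2a had the smallest adjusted p (edgeR, 0.00077) at −1.25 (SE 0.25), followed by Ccnb2 at −1.05, Mki67 at −0.996, Ube2c at −1.17, Cdca3 at −0.77, Tpx2 at −1.01, Aurkb, the kinase of the passenger complex, at −1.04 and Cenpf at −1.12. Ccnd1 was at −0.28 and Pcna at 0.04, and neither passed. The count was 9 also without the library labelled LFD PERC replicate 4. It was 1 without LFD vehicle replicate 3 and 2 without LFD vehicle replicate 1. Leaving out PERC libraries of that diet gave 4 (replicate 8) or 5 (replicate 1 or 7). Fitted on the 2 LFD groups alone, 1 gene was called.

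On HFD 5 genes fell and none rose, where 4.22% of all genes tested were called lower (9.18% in either direction). They were Ube2c at −1.36 (log2, SE 0.37), Mki67 at −0.94 (SE 0.28), Ccnd1 at −0.47 (SE 0.14), Ccnb1 at −1.59 (SE 0.48) and Cenpe at −0.69 (SE 0.23), with edgeR adjusted p-values from 0.012 to 0.042. Top2a was at −0.53 and Pcna at 0.10, and neither passed. The count was 2 without HFD PERC replicate 4, 6 or 7 or HFD vehicle replicate 4, and 3 without HFD PERC replicate 1 or HFD vehicle replicate 3 or 8. Fitted on the HFD groups alone, 2 genes were called.

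On MCD no gene was called by edgeR or DESeq2, and 6 had an unadjusted p below 0.05 (edgeR), where 5.1% of all genes tested were called (2.72% higher and 2.38% lower) and 17.3% had such a p. The smallest p-values were those of Birc5, at −0.63, Kif11, at −0.73, and Ccnd1, at −0.35. Mki67 was at −0.59, Top2a at −0.41 and Pcna at 0.05. Of the 26 G2 and mitosis genes 24 had values below 0, with a median of −0.33, against −0.65 on LFD and −0.48 on HFD. The count was 1 without MCD PERC replicate 1, 5 or 7, and 1 when only the MCD groups were fitted.

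The difference between diets was itself tested, and no gene of the 38 passed. For HFD minus LFD, 1 gene had an unadjusted p below 0.05, and for MCD minus LFD 4 did (edgeR, with no call by DESeq2 either). Of all genes tested 5.51% and 6.46% had such a p, and 0.0137% and 0% were called. For Top2a the PERC effect was 0.73 higher (log2) on HFD than on LFD, with a 95% interval from 0.04 to 1.41, and 0.84 higher on MCD, with an interval from 0.15 to 1.53. For Mki67 those intervals were −0.70 to 0.81 and −0.35 to 1.17. For Aurkb and Ccnb2 the effect on MCD was 1.11 and 0.91 higher than on LFD. For Ccnd1 the differences were −0.19 and −0.07, and for Pcna 0.06 and 0.01.

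**Figure D4:**
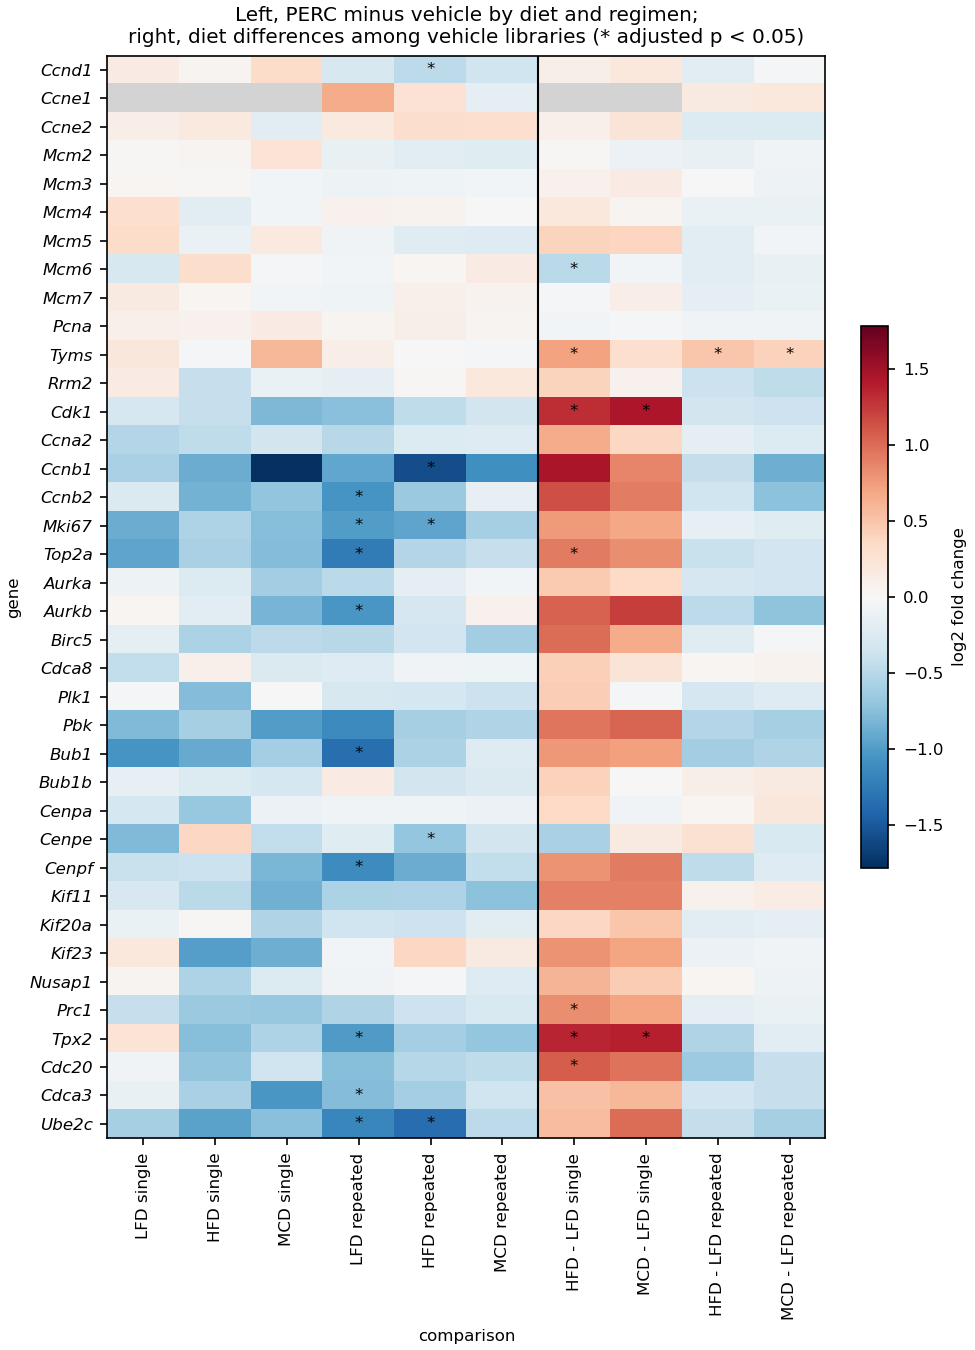
Log2 fold changes of the 38 genes (rows) for PERC minus vehicle on each diet in each regimen (left 6 columns) and for diet differences among vehicle libraries (right 4 columns), with blue for lower, red for higher, grey for not tested and a star past the test. The stars of the repeated regimen fall on 9 genes on LFD, 5 on HFD and none on MCD.

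Other genes of division were counted for repeated PERC averaged over the 3 diets, from lists chosen with earlier results of these data known. Among all genes tested, 11.7% were called lower there and 12.8% higher. Of 69 other mitotic genes 56 were tested, of which 22 fell and 2 rose, with a median of −0.21. Those of smallest p were Hmmr, a spindle protein, at −0.98, Kif15, a spindle motor, at −0.61, Dlgap5, a spindle protein, at −0.80, Espl1, the protease separase, at −0.47 and, on the higher side, Spc25, a kinetochore subunit, at 0.31. Of 42 other replication genes 41 were tested, of which 5 fell and 1 rose, with a median of 0.01. The part of them that fell was near the share of all genes. Mcm10, an origin firing factor, was at −0.54 and Dut, an enzyme of nucleotide supply, was at −0.24.

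Among regulators, Cdkn1a, which encodes the CDK inhibitor p21, rose. It held medians of 5.47, 4.79 and 4.97 CPM in vehicle libraries on LFD, HFD and MCD and of 12.4, 10.2 and 9.16 CPM in PERC libraries, a log2 change of 1.54 (SE 0.20, edgeR adjusted p = 6.5e-08). Of the 6 CDK inhibitors tested 3 rose, Cdkn2b at 0.53 among them, where 12.8% of all genes tested were called higher and 11.7% lower. Of 20 tested regulators of the E2F, DREAM and MYB-FOXM1 class 3 rose and 4 fell: Myc, a growth factor-induced transcription factor, was at 1.143, and Foxm1, the activator of mitotic genes, at −0.39. E2f1 was at −0.33, E2f3 at 0.14 and Mybl2 at 0.37. Havcr1 was at 4.00. Areg, an EGFR ligand, was at 4.38 from very low levels. It held at most 0.119 CPM in vehicle libraries of the repeated regimen and 0 to 3.69 CPM in PERC libraries.

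Markers of other cell types were counted in the same comparison, where 12.8% of all genes tested were called higher and 11.7% lower. Lists of endothelial, fibroblast and pericyte, erythroid and other nephron markers were also counted and are not given here. Of 10 adipocyte markers 6 rose, with a median of 0.96 (log2), and both tested neutrophil markers rose, with a median of 1.37. Of 8 tested lymphocyte markers 2 fell, with a median of −0.36 over the 8. Of 8 macrophage markers 1 rose and 2 fell, Csf1r at −0.53 among them, and of 8 proximal tubule markers 1 rose and 4 fell. The summed adipocyte markers ran from 94.1 to 176 CPM in LFD vehicle libraries and from 130 to 636 CPM in LFD PERC libraries, and the summed macrophage markers from 136.5 to 147.9 CPM and from 85.6 to 147.8 CPM. The summed lymphocyte markers ran from 18.2 to 29.2 CPM and from 12.997 to 25.8 CPM in the same groups. With the mean log2 CPM of the adipocyte markers in the model, 18 of the 38 genes were called averaged over diets. The part of the other markers in the results was not tested.

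Over the 47 libraries of the repeated regimen, each centred on its group mean, the 10 genes most like Mki67 by Pearson's r of log2 CPM were Cenpf (0.863), Top2a (0.842), Tpx2 (0.832), Pbk (0.821), Ccna2 (0.809), Prc1 (0.806), Kif11 (0.786), Hmmr (0.786), Esco2 (0.704) and Cdk1 (0.679). Of these 10 genes 8 belong to the 38. Tyms, Pcna and Ccnd1 had r values of −0.242, −0.106 and −0.089, Rrm2 had 0.488, and the median over all genes tested was 0.015. The libraries share lanes and depth, so these are descriptions with no p.

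Among the 25 PERC libraries of the repeated regimen, each centred on its diet group, those with more Cdkn1a had less Mki67. Pearson's r was −0.538 and Spearman's rho −0.574 (two-sided permutation p = 0.00601 and 0.00316, with 0.024 for r after Benjamini-Hochberg adjustment over 4 relations). Without the 2 libraries farthest from the median of Cdkn1a, r was −0.457 (permutation p = 0.0292). Within lanes, with each library centred on its lane and diet group, r was −0.190 (permutation p = 0.364) and did not pass. Every PERC library of lane 7 lay above its diet mean for Cdkn1a, so lane and Cdkn1a cannot be fully told apart. The value within lanes therefore does not decide whether the relation was present or absent there. By diet r was −0.705 on LFD (exact permutation p = 0.0378, n = 9), −0.685 on HFD (exact permutation p = 0.0676, n = 8) and −0.0471 on MCD (exact permutation p = 0.912, n = 8). The LFD set holds the library labelled LFD PERC replicate 4, at −1.137 for Cdkn1a and 0.4967 for Mki67 after centring. The relations with Cdkn1a were not computed without that library.

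For Top2a and Cdkn1a r was −0.481 and rho −0.493 (two-sided permutation p = 0.0148 and 0.0135, with 0.0296 for r after adjustment), r was −0.416 and rho −0.386 without the farthest 2 libraries (permutation p = 0.0476 and 0.0698), and r was −0.165 within lanes (permutation p = 0.426). With Havcr1, Mki67 had r = 0.000206 and rho = 0.0177, and Top2a had r = 0.0732 and rho = 0.0554 (permutation p from 0.728 to 0.999). Neither relation with Havcr1 passed the test, with adjusted p-values of 0.999 and 0.971. Without the 2 libraries farthest from the median of Havcr1, r was 0.21 for Mki67 and 0.173 for Top2a. Within lanes it was 0.128 and 0.147. By diet the signs differed: r with Mki67 was −0.422 on LFD, 0.19 on HFD and 0.56 on MCD, and with Top2a −0.307, 0.146 and 0.665 (exact permutation p from 0.0779 to 0.727).

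**Figure D5:**
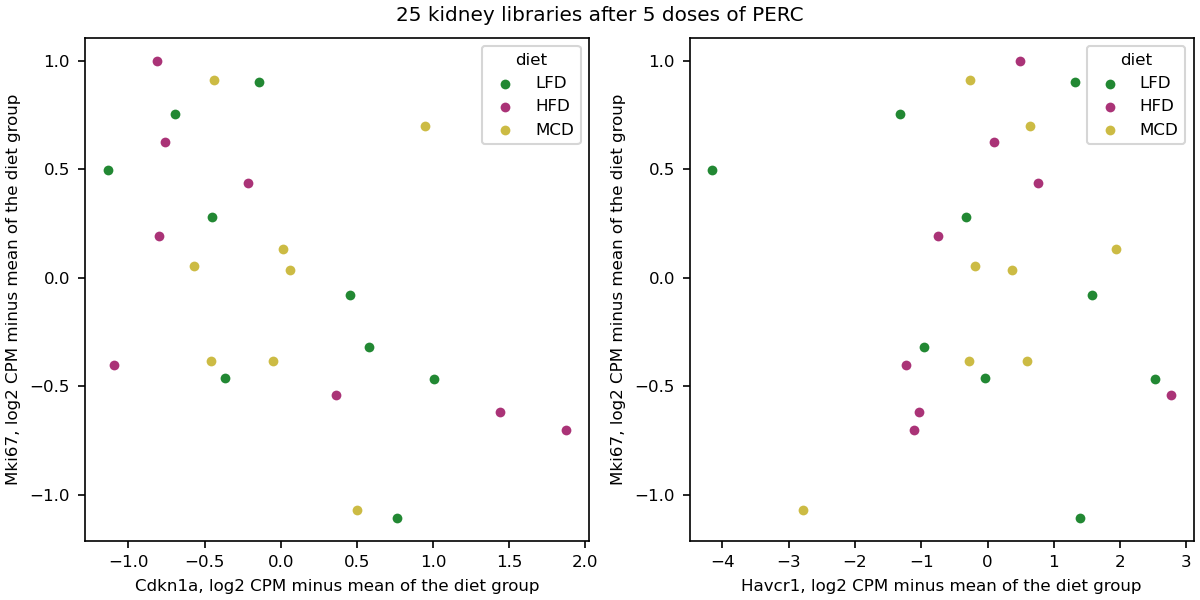
Mki67 (y axis) against Cdkn1a (left) and Havcr1 (right), as log2 CPM minus the mean of the diet group, in the 25 PERC libraries of the repeated regimen, coloured by diet. Mki67 lies lower where Cdkn1a is high (r = −0.538), an order that did not pass the test within lanes. It shows no such order with Havcr1 (r = 0.000206).

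A day after a single dose the G2 and mitosis genes also had lower values, with fewer calls. Averaged over diets, Top2a, Pbk, Mki67 and Prc1 fell and none rose, where 0.427% of all 14280 genes tested were called lower and 0.938% higher. Top2a was at −0.76 (log2, SE 0.13, edgeR adjusted p = 0.0020), Pbk at −0.79 (SE 0.16), Mki67 at −0.73 (SE 0.16) and Prc1 at −0.58 (SE 0.13). All 26 G2 and mitosis genes had values below 0, with a median of −0.47, and 10 of 11 tested G1 and S phase genes had values above 0, with a median of 0.05. Ccnd1 was at 0.17 and Pcna at 0.11, and neither passed. The count was 2 without MCD vehicle replicate 2 and 9 without LFD PERC replicate 5. No marker of the macrophage, lymphocyte or adipocyte lists was called here, though all 10 adipocyte markers had values above 0, with a median of 0.67.

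Mki67 held 6.01, 6.22, 5.36, 5.23 and 5.13 CPM in the 5 LFD vehicle libraries of the single regimen and 2.38, 3.80, 1.57 and 4.22 CPM in the 4 LFD PERC libraries. The groups did not overlap, where PERC lay wholly below vehicle in 0.987% of all genes tested. On HFD it held 7.79, 10.9, 8.77 and 10.2 CPM with vehicle and 6.71, 5.12, 4.28, 7.77 and 8.63 CPM with PERC. On MCD it held 12.1, 7.62 and 7.06 CPM with vehicle and 3.72, 7.03, 3.28 and 7.10 CPM with PERC. On HFD and MCD the highest PERC libraries lay inside the range of the vehicle libraries.

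Within single diets no gene passed after the single dose. On LFD, 7 of the 37 genes had an unadjusted p below 0.05 (edgeR) and 1 was called lower by DESeq2, and 9.37% of all genes tested had an unadjusted p below 0.05 (0.749% were called by edgeR). Top2a was at −0.95, Cenpe at −0.78 and Mki67 at −0.89. On HFD, 17 genes had an unadjusted p below 0.05 and none was called by DESeq2, where 4.04% of all genes had such a p and 0.007% were called. Kif23 was at −0.98, Cdc20 at −0.71 and Nusap1, a spindle binding protein, at −0.55, beside −0.55 for Mki67 and −0.58 for Top2a.

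On MCD, 13 genes had an unadjusted p below 0.05 (edgeR) and 1 was called higher by DESeq2, where 4.96% of all genes had such a p and 0.028% were called. Tyms was at 0.59, Cdca3 at −1.03 and Pbk at −0.997, beside −0.76 for Mki67 and −0.77 for Top2a. Tyms held 13.8, 12.7 and 11.5 CPM in MCD vehicle libraries and 22.2, 20.2, 18.1 and 16.3 CPM in MCD PERC libraries, with no overlap. In these small groups PERC lay wholly above vehicle in 2.67% of all genes tested and wholly below in 3.25%. Ccnd1 had values of 0.15, 0.04 and 0.32 on LFD, HFD and MCD, and Pcna of 0.09, 0.08 and 0.15. The MCD count was 1 without LFD PERC replicate 4, and the LFD count 1 without LFD PERC replicate 3 or 5, LFD vehicle replicate 4, MCD vehicle replicate 3 or 5, or HFD PERC replicate 4. No gene of the 38 passed the test of a diet difference in the single dose's effect, where 0% of all genes were called for HFD and for MCD against LFD. In those tests 8 and 3 of 37 genes had an unadjusted p below 0.05 (edgeR), against 5.54% and 4.2% of all genes, with no call by DESeq2. The smallest p-values were those of Cenpe at 1.15, Mcm6 at 0.59 and Kif23 at −1.17 for HFD, and of Kif23 at −1.06, Cdca3 at −0.90 and Tyms at 0.39 for MCD. Mki67 gave 0.34 and 0.13, Top2a 0.37 and 0.18, Ccnd1 −0.10 and 0.17, and Pcna −0.01 and 0.06.

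For 2 genes the PERC effect differed between the regimens, averaged over diets, where 1.31% of the 15139 genes tested were called in either direction. Ccnd1 was lower in the repeated regimen relative to the single regimen by a log2 difference of −0.55 (SE 0.13, edgeR adjusted p = 0.017). In the single regimen it held 204, 219, 179, 145.06 and 137.5 CPM in LFD vehicle libraries and 244, 185, 186 and 169 CPM in LFD PERC libraries, which overlapped. Kif23 gave a difference of 0.70 (SE 0.17, edgeR adjusted p = 0.018). It held 18.1, 10.2, 10.7 and 12.1 CPM in HFD vehicle libraries of the single regimen and 5.23, 7.79, 7.89, 4.91 and 6.33 CPM in HFD PERC libraries, with no overlap. Between these groups PERC lay wholly below vehicle in 0.875% of all genes tested. In the repeated regimen its HFD medians were 7.13 CPM with vehicle and 9.27 CPM with PERC.

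For Mki67, Top2a and Pcna the difference between regimens was −0.12 (95% interval −0.61 to 0.37), 0.03 (−0.41 to 0.47) and −0.05 (−0.17 to 0.08) on the log2 scale, and none passed. On LFD alone no gene passed, with 5 at an unadjusted p below 0.05 (edgeR) and none called by DESeq2, where 4.54% of all genes had such a p and 0.0132% were called. The 3 smallest p-values there were those of Ccne1 at 1.27, Tpx2 at −1.26 and Mcm7 at −0.25, beside −0.44 for Ccnd1, −0.12 for Mki67, −0.32 for Top2a and −0.06 for Pcna. Ccne1 held only 1 to 13 counts in the LFD libraries of the single regimen, where it did not pass the filter. The regimens differ in lane, time after dosing and number of doses, which cannot be told apart. No library of the repeated regimen, LFD PERC replicate 4 among them, was left out for the differences between regimens.

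Among vehicle libraries of the single regimen, 5 of the 26 genes of G2 and mitosis were higher on HFD than on LFD, and Cdk1 and Tpx2 were higher on MCD than on LFD. For HFD minus LFD 6 genes rose and 1 fell, where 0.875% of all genes tested were called higher and 0.763% lower. Cdk1 rose by 1.32 (log2, SE 0.26, edgeR adjusted p = 0.0048), Tpx2 by 1.35, Cdc20 by 1.08, Top2a by 0.92 and Prc1 by 0.83. Tyms rose by 0.71 (SE 0.11, edgeR adjusted p = 0.00077), and Mcm6 was lower at −0.48. Mki67, at 0.76, Ccnd1, at 0.11, and Pcna, at −0.04, did not pass. Of the 26 G2 and mitosis genes 25 had values above 0, with a median of 0.79. The count of 7 became 4 without HFD vehicle replicate 3 or 5 or LFD vehicle replicate 4.

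Cdk1 held 0.92, 0.722, 1.23, 1.28 and 1.26 CPM in the 5 LFD vehicle libraries of the single regimen and 1.92, 3.06, 2.67 and 3.01 CPM in the 4 HFD vehicle libraries. In the 3 MCD vehicle libraries it held 2.64, 3.91 and 2.35 CPM. Every HFD and MCD vehicle library was above every LFD vehicle library. Of all genes tested, 3.18% lay wholly above LFD in this way on HFD and 2.18% on MCD. For MCD minus LFD, Cdk1 rose by 1.45 (SE 0.27) and Tpx2 by 1.38 (SE 0.30), where 0.217% of all genes tested were called higher. Cdc20 was at 0.97, Top2a at 0.83, Mki67 at 0.69, Ccnd1 at 0.18 and Pcna at −0.03, and none passed. The count of 2 became 0 without MCD vehicle replicate 2, 1 without MCD vehicle replicate 3 or LFD vehicle replicate 2, 3 or 4, and 0 when only those groups were fitted. No macrophage or lymphocyte marker was called in either comparison, with macrophage medians of 0.36 and 0.24. Of the 10 adipocyte markers none was called for HFD and 1 was lower for MCD.

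In the repeated regimen the vehicle libraries did not show this order. For HFD minus LFD and for MCD minus LFD only Tyms rose, by 0.49 (SE 0.08, edgeR adjusted p = 3.9e-05) and by 0.41 (SE 0.08, edgeR adjusted p = 0.0015), where 3.86% and 2.11% of all genes tested were called higher (6.64% and 3.48% in either direction, with 2.78% and 1.37% lower). The G2 and mitosis genes had medians of −0.29 and −0.24, Mki67 was at −0.15 and −0.22, and Top2a at −0.40 and −0.33. Ccnd1 was at −0.19 and −0.03 and Pcna at −0.07 and −0.06. Whether the diet difference itself differed between the regimens was not tested. Fitted on the compared groups alone the counts were 2 and 2, and the HFD count was 2 without HFD vehicle replicate 4.

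Tyms, which makes thymidylate with a folate cofactor, held 10.3, 11.8 and 12.9 CPM (lowest, median and highest) in the 7 LFD vehicle libraries of the repeated regimen. It held 14.7, 16.5 and 18.9 CPM on HFD and 13.5, 16.2 and 17.3 CPM on MCD, so that both groups lay above LFD without overlap. Of all genes tested, 1.88% lay wholly above LFD on HFD and 1.45% on MCD. In the single regimen it held 10.2, 11.3, 11.1, 9.68 and 9.35 CPM in LFD vehicle libraries and 19.4, 14.9, 16.1 and 17.5 CPM in HFD vehicle libraries. In the 3 MCD vehicle libraries it held 13.8, 12.7 and 11.5 CPM, a log2 difference of 0.30 from LFD that did not pass (edgeR adjusted p = 0.60). Tyms has a named pseudogene, and its counts are uncertain for that reason. Of the 10 adipocyte markers 7 rose for HFD and 5 for MCD in the repeated vehicle libraries, with medians of 1.83 and 1.86. With the mean log2 CPM of the adipocyte markers in the model, the MCD difference of Tyms was 0.35 (edgeR adjusted p = 0.058) and no longer passed.

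By position, 12 of the 38 genes share exon bases with another gene in the GENCODE M21 annotation of GRCm38, Top2a, Ccnd1, Ccna2, Prc1, Cdc20 and Ube2c among them. In 11 the other gene lies on the opposite strand. Since the strand setting of the counting is not given in the sources used here, reads of such pairs may not be separated. Mki67 (chromosome 7, 135689784 to 135716361, minus strand) shares none, and 4 genes, Pcna, Tyms, Ccnb1 and Ccnb2, have a named pseudogene.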

How the data were processed

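RNA from pulverized mouse kidney was sequenced with a stranded mRNA kit, per the labels' protocols. The authors deposited whole-number counts per gene for each library, made with bcl2fastq 2.17.1.14, Trimmomatic, TopHat2 2.0.13 and HTSeq on GRCm38, per the submitters' processing notes, which also list DESeq2. The annotation and the strand setting are not given in the sources used here. Rows that name no gene were left out, and counts in genes were 45.4% to 62.3% of the file totals. Libraries under 1000000 counts in genes were left out, and 1 further MCD vehicle sample was not analysed here.

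Each regimen was fitted over its 6 groups, and both together for differences between regimens, with edgeR 4.0.16 in R 4.3.3 (TMM, filterByExpr, robust quasi-likelihood F test, Benjamini-Hochberg adjustment, threshold 0.05). The SE was taken from the size of the log2 change and the root of its F statistic. No label ties a library to its own animal, so p-values measure the spread between samples, which may be technical. CPM values use TMM-scaled library sizes. Relations used log2 CPM with a prior count of 2 and permutation tests in SciPy 1.17.1 (100000 permutations, exact under 10 libraries). The fitting was tested on simulated data. Alternatives were DESeq2 1.42.0, RLE scaling, no filter, lane or adipocyte markers as covariates, low-depth libraries kept, only the compared groups, and leaving out each library. For differences between regimens, only libraries of the single regimen were left out.

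The members, gene lists and tests were chosen with earlier results of these data known. All 38 genes are accounted for. Named with statistics were at most 8 called genes per comparison by smallest p, or the 3 of smallest p where none was called, and Mki67, Top2a, Ccnd1 and Pcna throughout. From other lists at most 5 called genes were named, and Mki67-like genes were the 10 of highest r.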

Additional observations from a re-analysis of the deposited data

Results flagged for a closer look

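In 15 of 187 combinations of a gene and a group of 4 to 10 libraries, over 17 genes, 1 library stood apart by Dixon's criterion. Chance gives about 1 in 20 for normally distributed values. All 15 were the highest of their group and the values were CPM on the linear scale, so that rate may not apply here. HFD vehicle replicate 4 of the repeated regimen held 9.955 CPM of Mki67, 3.318 CPM of Tpx2 and 2.4 CPM of Pbk, above the other 7 libraries. HFD PERC replicate 3 of that regimen held 1.734 CPM of Cdc20, 1.96 CPM of Pbk and 1.508 CPM of Cenpf. MCD PERC replicate 7 held 312.3 CPM of Ccnd1, 2.269 CPM of Cdc20 and 2.647 CPM of Ccnb2, each above its group.

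Of the other libraries of the repeated regimen, LFD PERC replicate 2 held 17.77 CPM of Tyms and 6.693 CPM of Cenpe, and LFD PERC replicate 3 held 0.992 CPM of Bub1. MCD PERC replicate 1 held 2.266 CPM of Cenpf, and MCD vehicle replicate 6 held 1.196 CPM of Ube2c. In the single regimen LFD vehicle replicate 2 held 1.985 CPM of Ccnb2. Each of these was the highest of its group.

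The PERC effect, averaged over diets, differed between the regimens by a test of the difference itself in Ccnd1, at −0.55 on the log2 scale for repeated minus single, and in Kif23, at 0.70.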

How the results depend on the processing

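Of the 50 calls among the 38 genes, alternatives were followed for 38, at most 8 per comparison by smallest p, and none of these changed sign. Of results with no call, 16 gene differences, at most 0.187 in size on the log2 scale, and both relations with Havcr1 changed sign under at least 1 alternative. Of the 38 calls followed, all kept their call with DESeq2, RLE scaling and lane as a covariate, and 36 without a filter. With adipocyte markers as a covariate 31 of 36 kept it, and with only the compared groups fitted 11 of 22. Whichever library was left out, 20 kept it. For Ccnd1 and Kif23 in the difference between regimens, only the 25 libraries of the single regimen were left out in turn. With 1 library left out, a called value stayed within 0.669 and 1.24 times its main value.

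The count averaged over diets in the repeated regimen stayed between 17 and 21 with 1 library left out. The other counts ran from 1 to 11 on LFD, 2 to 7 on HFD and 0 to 1 on MCD with repeated doses. After the single dose they ran from 0 to 1 on LFD and MCD and 2 to 9 averaged over diets. For diet among vehicle libraries they ran from 4 to 9 (HFD) and 0 to 3 (MCD) in the single regimen and 1 to 2 (HFD) with repeated doses. After the single dose, lane as a covariate gave 1 call on LFD and 9 averaged over diets (2 higher, 7 lower), low-depth libraries gave 1 and 9, with 12 (HFD) and 4 (MCD) for diet, and DESeq2 gave 1 on LFD, 1 on MCD, 9 averaged over diets and 11 for HFD against LFD. Adipocyte markers as a covariate gave 5 on LFD and 0 for MCD against LFD in the repeated regimen. Fitting only the compared groups gave 1 on LFD, 2 on HFD, 1 on MCD and 2 for each diet among vehicle libraries in the repeated regimen, and 0 for MCD against LFD in the single. The cause of these moves was not tested.

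For Mki67 with Cdkn1a, r was −0.1903 within lanes, −0.6848 on HFD and −0.04714 on MCD. For Top2a with Cdkn1a, r was −0.1648 within lanes, −0.5626 on LFD, −0.6944 on HFD and −0.04889 on MCD. Low counts limit Ccnb1, Ube2c, Bub1, Aurkb, Ccne1 and the EGFR ligand Areg, whose group medians in the repeated regimen were 1.21 CPM or less. No paired analysis was possible because replicate numbers follow accession order alone and pair no samples.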
